A study of Mus musculus with 12 samples.

Results

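The pentose phosphate pathway was followed through the genes of 10 enzymes in C2C12 cells, a mouse myoblast line, kept for 24 h in one of 3 media: high glucose (25 mM glucose), low glucose (5 mM glucose) and galactose (10 mM galactose). The genes were chosen by their place in the pathway: G6pdx, H6pd, Pgls and Pgd for the oxidative branch, Rpe, Rpia, Tkt and Taldo1 for the non-oxidative branch, and Prps1 and Prps2 for the activation of its ribose phosphate. All 10 were found among the 26271 loci of the authors' deposited table, each in 1 locus that holds no other gene symbol. Serum (10%), pyruvate (1 mM) and antibiotic (1%) were common to the media. For each medium 4 polyA RNA libraries were sequenced, 12 in all, and the title of the series places the work in metabolism, muscle stem cell self-renewal and histone acetylation. The design text speaks instead of muscle stem cells, fresh or after 96 h of culture; cell type and time are given here as the sample labels have them.

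The pathway leaves glycolysis at glucose 6-phosphate. Its oxidative branch yields NADPH, which reduces glutathione and thioredoxin and feeds lipid synthesis, and ends in a pentose phosphate. Its non-oxidative branch interconverts pentose phosphates with glycolytic intermediates in either direction, and phosphoribosyl pyrophosphate (PRPP), made from ribose 5-phosphate, is the start of nucleotide and NAD synthesis. In muscle precursors the pathway is known for supplying nucleotides and reducing power during proliferation.

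Levels are FPKM (fragments scaled by transcript length and by library size), of which the authors' deposited table gives 1 pooled value per medium. No SD, depth or spread between the 4 libraries behind a value can therefore be given. A gene was called where the authors' own test had a q-value (the adjusted p-value) below 0.05; this test describes these libraries, since the labels do not say whether they came from separate cultures. Many loci passed it: 36.4% of those tested for low against high glucose, 51.3% for galactose against high glucose and 33.3% for galactose against low glucose. The lowest q, 0.000239, was shared by 9204 of 44006 tests. In pooled RNA of a culture, fewer cells of a kind and less RNA per cell cannot be told apart. Of 7 myoblast markers, 6 were lower in low glucose and 7 in galactose, with summed levels of 884, 578 and 470 FPKM from high glucose through low glucose to galactose in the authors' deposited table. Of the 6 myotube markers tested, 5 were lower in low glucose and all 6 were higher in galactose than in low glucose. From high glucose to galactose 1 was higher (Acta1) and 2 were lower (Myog and Myh3). The 7 listed summed to 35.9, 21.4 and 51.5 FPKM per the authors' deposited table, of which Acta1 made up 16.1, 11.1 and 30.2 FPKM. Myh3 is read from a locus combined with Myh13, Myh2, Myh4 and Myh8. The fibroblast markers summed to 54.7, 34.1 and 20.3 FPKM per the authors' deposited table, of which Pdgfrb, also a gene of mural cells, made up 52.2, 32.2 and 18.3 FPKM. Thy1 and Lum were at 0, and Dcn was called higher in galactose than in low glucose, with 0.648 against 0.460 FPKM per the authors' deposited table. The adipocyte markers summed to at most 0.531 FPKM with Lep at 0, in the authors' deposited table. Of 6 leukocyte and endothelium markers, Cd68 is read from a locus combined with Eif4a1, a broadly expressed translation factor gene, at 72.7 to 98.6 FPKM, while Adgre1 is at 0 and the other 4 at most at 0.157 FPKM per the authors' deposited table. The part of these marker differences in the values below was not tested.

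In galactose the genes of 3 abundant enzymes, Pgd, Tkt and Taldo1, rose to 1.46 to 1.83 times their level in high glucose in the authors' deposited table, while G6pdx, which encodes the enzyme of the committed step, was listed at nearly the same level in all 3 media. In low glucose none of these 4 genes was called, and the scarcer genes Rpe, Rpia and Prps1 rose, whose enzymes make pentose phosphates and PRPP. Those 3 genes were also called higher from high glucose to galactose and were not called between low glucose and galactose. Their log2 changes to galactose of 0.25, 0.23 and 0.32 in the authors' deposited table came to 0.08, 0.06 and 0.15 as shares of each medium's total FPKM, and the calls of Rpe and Rpia there ended at q below 0.01. Calls in galactose fell in both branches, with Pgd in the oxidative one and Tkt and Taldo1 in the other.

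**Figure D1:**
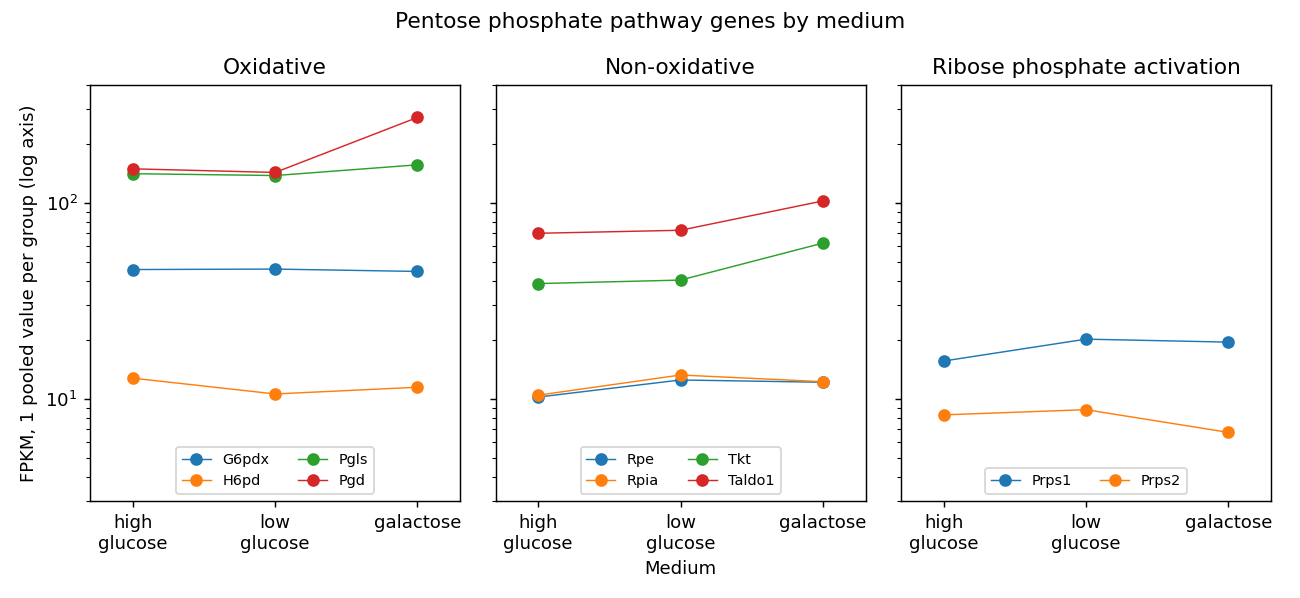
Level of each gene in FPKM (y axis, log scale) in the 3 media (x axis), with 1 pooled value per medium from the authors' deposited table and therefore no error bars; thin lines join the values of a gene. Pgd goes from 149 to 273 FPKM in galactose, whereas G6pdx lies between 44.7 and 45.9 FPKM in all media.

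The members spanned a wide range of abundance. In high glucose, Pgd at 149 FPKM and Pgls at 141 FPKM stood at percentiles 95.1 and 94.7 of loci with at least 1 FPKM, and Prps2 at 8.27 FPKM stood at percentile 34.1, by the levels in the authors' deposited table. From high to low the order in high glucose was Pgd, Pgls, Taldo1, G6pdx, Tkt, Prps1, H6pd, Rpia, Rpe and Prps2. In low glucose H6pd went below Rpia and Rpe, and in galactose Tkt also went above G6pdx. Neighbours such as Rpia and Rpe, with 10.4 and 10.2 FPKM in high glucose in the authors' deposited table, cannot be ordered beyond their spread, which is unknown.

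In the oxidative branch, G6pdx encodes glucose-6-phosphate dehydrogenase, the rate-limiting entry enzyme and the first source of NADPH. It was listed at 45.7 FPKM in high glucose, 45.9 under low glucose and 44.7 with galactose in the authors' deposited table. None of the 3 comparisons was called, with q = 0.954 for low against high glucose, 0.821 for galactose against high glucose and 0.772 for galactose against low glucose in the authors' deposited table. No interval is given for these differences, so the values do not show that the gene was unchanged. Its log2 change of 0.01 from high to low glucose became -0.08 when each value was taken as a share of the medium's total FPKM. Its log2 changes to galactose, -0.03 from high glucose and -0.04 from low glucose in the authors' deposited table, became -0.20 and -0.12. The median of all tested loci became -0.17 and -0.07 as shares in those 2 comparisons.

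G6pdx shares bases with 2 other genes. Its locus, XLOC_025676, is given as chrX:74393291-74455584 (mm10) in the authors' deposited table, close to that of Ikbkg in GENCODE M21 (chrX:74393290-74453854). GENCODE M21, of the same build, places G6pdx at chrX:74409483-74429194, wholly inside the span of Ikbkg, a subunit gene of the IKK kinase on the other strand, and 418 of its 3080 exonic bases (13.6%) also lie in an Ikbkg exon. Ikbkg went from 10.4 FPKM in high glucose and 10.3 in low glucose to 23.6 in galactose in the authors' deposited table, a log2 change of 1.18 from high glucose (q = 0.000239). It was named after its values were seen, as was the next gene. G6pd2, an intronless autosomal copy of G6pdx, holds 7.65% of the 50-base words of the longest G6pdx transcript. The authors' deposited table lists G6pd2 at 29.1, 27.5 and 25.5 FPKM in high glucose, low glucose and galactose. That was called lower from high glucose to galactose, by a log2 change of -0.19 (q = 0.0159) in the authors' deposited table. Whether the counting used the strand, and how it treated reads that match both copies, is not given in the sources used here.

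Pgls and Pgd encode the later cytosolic enzymes of the branch. Pgls, the lactonase, was listed at 141 FPKM in high glucose, 138 under low glucose and 156 with galactose in the authors' deposited table. It was called higher from low glucose to galactose, with a log2 change of 0.18 (q = 0.0168) in the authors' deposited table, or 0.10 as a share of total FPKM, and this call ended at q below 0.01. From high glucose to galactose its log2 change in the authors' deposited table was 0.15 (q = 0.0555, not called), which turned to -0.02 as a share of total FPKM. Its locus, XLOC_022487, lies at chr8:71592184-71596267 (mm10), and ends before the Fam129c gene, which in GENCODE M21 overlaps a longer form of Pgls: 0 of their shared exonic bases lie inside the deposited locus. Pgd, 6-phosphogluconate dehydrogenase, is the second source of NADPH and makes ribulose 5-phosphate. Its level was 149 FPKM in high glucose, 143 under low glucose and 273 with galactose in the authors' deposited table, and the value in galactose stands above both glucose media. The log2 change was 0.87 from high glucose (1.83-fold) and 0.93 from low glucose (1.91-fold), both with q = 0.000239, the largest changes of any member in the authors' deposited table. From high to low glucose it was not called (log2 change -0.06, q = 0.494) in the authors' deposited table. Its locus, XLOC_016826, lies at chr4:149149771-149166732 (mm10) and overlaps no other gene in GENCODE M21.

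H6pd encodes the dehydrogenase of the endoplasmic reticulum lumen, which carries out the opening steps there and keeps its own pool of NADPH. It was the only member called lower from high to low glucose, from 12.7 to 10.6 FPKM, a log2 change of -0.27 (q = 0.000456) in the authors' deposited table. In galactose it was listed at 11.5 FPKM, and neither comparison with galactose was called in the authors' deposited table (q = 0.068 from high glucose and 0.191 from low glucose). Its locus, XLOC_016835, lies at chr4:149976621-150009068 (mm10) and overlaps no other gene in GENCODE M21.

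In the non-oxidative branch, Rpe and Rpia encode the epimerase and the isomerase that pass ribulose 5-phosphate on as xylulose 5-phosphate or ribose 5-phosphate. Rpe was listed at 10.2 FPKM in high glucose, 12.5 under low glucose and 12.1 with galactose in the authors' deposited table. Rpia was listed at 10.4, 13.2 and 12.2 FPKM in the same order in the authors' deposited table. Both genes thus had their lowest level in high glucose. From high to low glucose the log2 change was 0.29 for Rpe (q = 0.00556) and 0.34 for Rpia (q = 0.000239) in the authors' deposited table. From high glucose to galactose it was 0.25 for Rpe (q = 0.0203) and 0.23 for Rpia (q = 0.0111) in the authors' deposited table, or 0.08 and 0.06 as shares of total FPKM. Neither q is below 0.01. Neither was called between low glucose and galactose, with log2 changes of -0.04 (q = 0.774) and -0.11 (q = 0.249) in the authors' deposited table.

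Rpe lies at XLOC_000176, given as chr1:66700813-66817595 (mm10), where GENCODE M21 ends the gene at base 66719805 and Kansl1l at base 66817562. It overlaps Kansl1l on the other strand over 558 bases, 17.9% of the exonic bases of Rpe in GENCODE M21. Kansl1l was listed at 2.94, 2.51 and 3.23 FPKM in high glucose, low glucose and galactose in the authors' deposited table. It was called from low glucose to galactose alone (log2 change 0.36, q = 0.0247) in the authors' deposited table, a comparison in which Rpe was not called. Rpia, at XLOC_019431 on chr6:70765720-70792175, overlaps no other gene.

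Tkt and Taldo1 encode transketolase and transaldolase, which shuttle short carbon units between sugar phosphates and link the pathway back to glycolysis. Tkt was listed at 38.7 FPKM in high glucose, 40.4 under low glucose and 62.3 with galactose in the authors' deposited table. Taldo1 was listed at 69.9, 72.5 and 102 FPKM in the same order in the authors' deposited table. For both genes the glucose media lay close together and galactose was higher. Tkt rose from high glucose to galactose by 0.69 on the log2 scale (1.61-fold) and Taldo1 by 0.55 (1.46-fold), each with q = 0.000239 in the authors' deposited table. From low glucose to galactose the log2 changes were 0.63 for Tkt and 0.50 for Taldo1, again with q = 0.000239 in the authors' deposited table. From high to low glucose neither was called, and their log2 changes of 0.06 (q = 0.536) and 0.05 (q = 0.597) by the authors' deposited table became -0.03 and -0.04 as shares of total FPKM. Tkt lies at XLOC_006601 (chr14:30549141-30575949) and Taldo1 at XLOC_020923 (chr7:141392132-141402993, mm10). Of the 50-base words of the Taldo1 transcript, 10.9% also occur in Gm17823, for which no value is given here.

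Prps1 and Prps2 encode isoforms of PRPP synthetase and went apart. Prps1 was listed at 15.6 FPKM in high glucose, 20.1 under low glucose and 19.5 with galactose in the authors' deposited table. Prps2 was listed at 8.27, 8.80 and 6.74 FPKM in the same order in the authors' deposited table, so its lowest level was in galactose and that of Prps1 in high glucose. Prps1 was called higher in low glucose and in galactose than in high glucose, with log2 changes of 0.37 and 0.32 (q = 0.000239 for each) by the authors' deposited table, or 0.28 and 0.15 as shares of total FPKM. Prps2 was called lower in galactose than in high glucose (log2 change -0.30, q = 0.000659) and than in low glucose (-0.38, q = 0.000239) in the authors' deposited table, or -0.47 in both as shares of total FPKM. The ratio of Prps1 to Prps2 was 1.88 in high glucose, 2.29 under low glucose and 2.89 with galactose, and the summed level of both was 23.9, 28.9 and 26.2 FPKM, computed from the authors' deposited table. Prps1 lies at XLOC_025324 (chrX:140456603-140476239) and Prps2 at XLOC_025916 (chrX:167346290-167382907, mm10). Of the 50-base words of the Prps1 transcript, 10.1% also occur in Prps1l3, a related gene that the authors' deposited table holds in 1 locus with Mipol1. That locus was listed at 15.3, 18.3 and 18.2 FPKM in high glucose, low glucose and galactose in the authors' deposited table, so the values of Prps1 and of this locus may share reads.

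**Figure D2:**
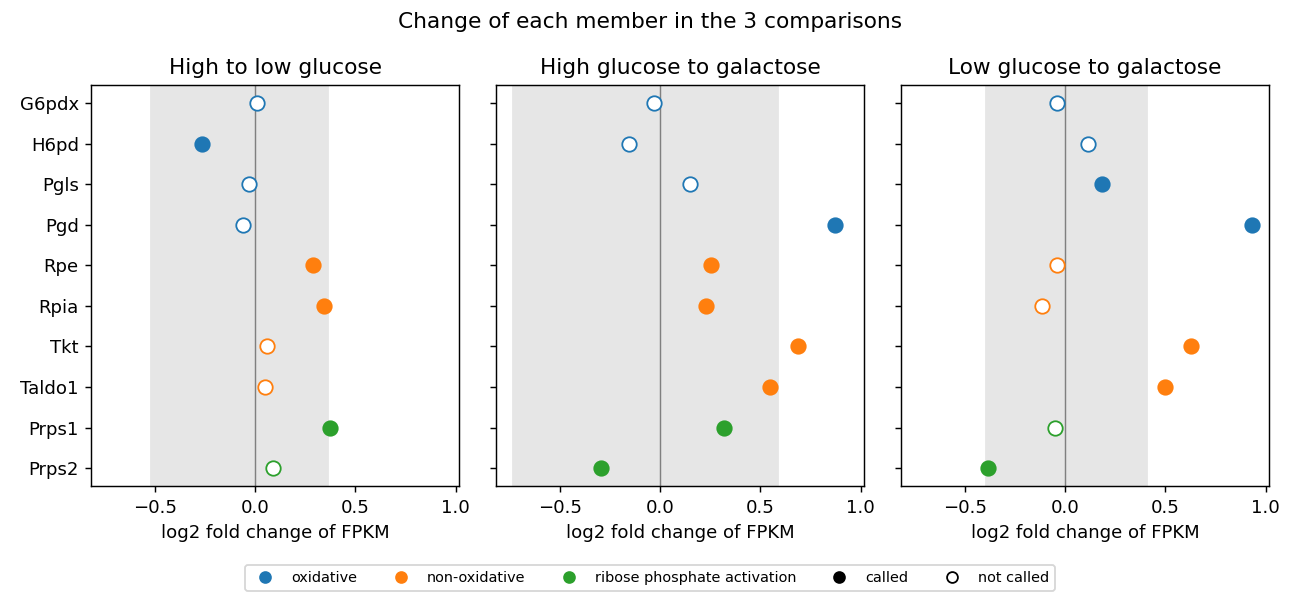
log2 fold change of FPKM (x axis) of each gene (rows) in the 3 comparisons of the authors' deposited table, coloured by branch, filled where called and open where not. The grey band runs from percentile 10 to 90 of all tested loci, from -0.73 to 0.59 in the middle panel, where Pgd at 0.87 and Tkt at 0.69 lie beyond it.

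Counted over the pathway, 4 of the 10 genes were called from high to low glucose in the authors' deposited table, 3 higher (Rpe, Rpia and Prps1) and 1 lower (H6pd), against a background of 18.3% of tested loci higher and 18.2% lower. From high glucose to galactose 7 were called, 6 higher (Pgd, Rpe, Rpia, Tkt, Taldo1 and Prps1) and 1 lower (Prps2), against 26.5% of loci higher and 24.8% lower. From low glucose to galactose 5 were called, 4 higher (Pgls, Pgd, Tkt and Taldo1) and 1 lower (Prps2), against 17.4% higher and 16% lower. The share of members called was 40%, 70% and 50%, beside the 36.4%, 51.3% and 33.3% of all tested loci given above. The first lies near its background. The comparisons share media, so their counts are not independent. The median log2 change of the members was 0.06, 0.24 and 0.04 in the 3 comparisons, beside 0.01 for all tested loci in each, from the authors' deposited table.

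By branch, the non-oxidative genes had 2 of 4 called from high to low glucose, 4 of 4 for galactose against high glucose and 2 of 4 for galactose against low glucose, all higher. The oxidative genes had 1 of 4 (lower), 1 of 4 (higher) and 2 of 4 (higher) called in the same order. Of all tested loci, 36.4%, 51.3% and 33.3% were called in these comparisons, with 18.3%, 26.5% and 17.4% called higher. Of the non-oxidative genes, Rpe and Rpia were no longer called from high glucose to galactose at q below 0.01. The median log2 change of the oxidative genes was -0.05, 0.06 and 0.15, and that of the non-oxidative genes 0.17, 0.40 and 0.23, from the authors' deposited table. As shares of total FPKM the oxidative medians were -0.13, -0.11 and 0.06, the second with its sign turned, and the non-oxidative ones 0.09, 0.23 and 0.15. The difference between the branches was not tested.

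Summed levels gave another picture, since they follow the abundant genes. The oxidative branch summed to 348, 337 and 486 FPKM in high glucose, low glucose and galactose, and the non-oxidative branch to 129, 138 and 189 FPKM, computed from the authors' deposited table. Galactose thus stood 39.3% above high glucose in the oxidative and 46.2% in the non-oxidative sum, values without a test. Of the difference in the oxidative sum, Pgd made up 90.3%. The ratio of the oxidative to the non-oxidative sum was 2.70 in high glucose, 2.44 under low glucose and 2.57 with galactose. Within the oxidative branch the ratio of Pgd to G6pdx went from 3.27 in high glucose and 3.12 in low glucose to 6.11 in galactose, while that of Taldo1 to Tkt was 1.81, 1.80 and 1.64.

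**Figure D3:**
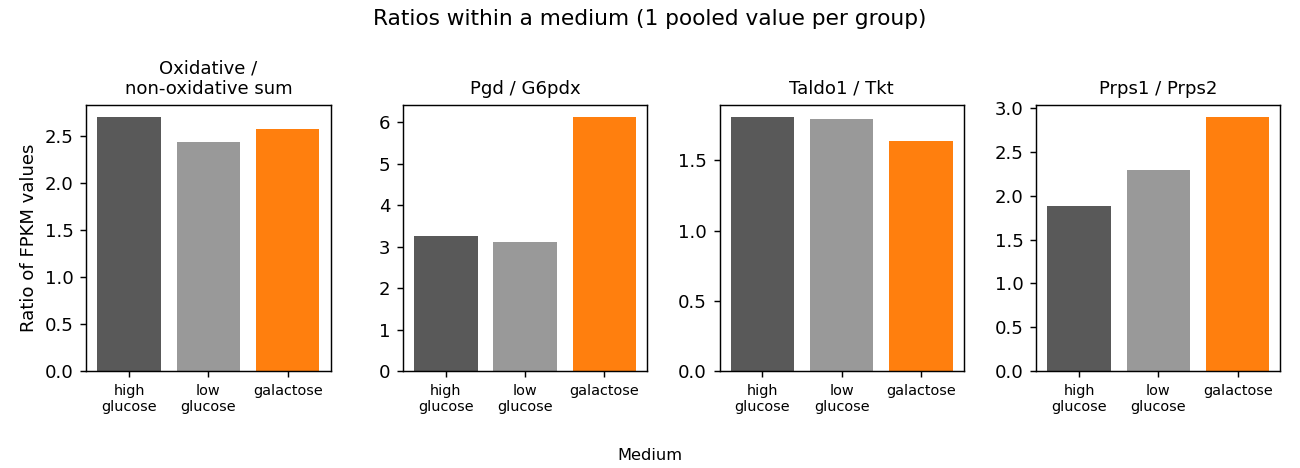
Ratios of FPKM values within a medium (y axes from 0, no unit) for the summed branches and for 3 pairs of genes in the 3 media (x axes), each from 1 pooled value per medium without error bars. The summed branches keep a ratio between 2.44 and 2.70, whereas Pgd over G6pdx is 6.11 in galactose against 3.27 in high glucose.

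No member reached a 2-fold change with q below 0.05 in any comparison of the authors' deposited table, as 3.31%, 8.43% and 2.86% of tested loci did in the 3 comparisons, in the order used so far. At q below 0.01, where 26.9%, 42% and 24.3% of loci were called, the members had 4, 5 and 4 calls; Rpe and Rpia were no longer called from high glucose to galactose, nor Pgls from low glucose to galactose. Adjusting within each comparison (35.6%, 53.1% and 31.8% of loci called) added Pgls from high glucose to galactose, making 8. All members had at least 1 FPKM in every medium, and among tested loci with that level in either group 37.4%, 53.1% and 34% were called.

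The promoters are shown for Pgd and Taldo1, called higher in galactose, and for Prps1, called higher in low glucose. Also shown is the site in G6pdx, which was not called. Tkt, which rose with Pgd and Taldo1, and Rpe and Rpia, which rose with Prps1, are not shown. The sequences are those of RefSeq (GRCm38.p6), which held all 10 genes, over the 250 bases before the start site; bases that GENCODE M21 counts as exon were left out, save for the short G6pdx site. Capitals mark matches, on either strand, to the core of the antioxidant response element bound by NRF2 (TGACNNNGC), to a core of the composite element bound by ATF4 (TGATGNAA), to the GC box (GGGCGG) and to the CCAAT box (CCAAT). Bases left out are therefore missing from the Pgd stretch next to its start.
G6pdx site, chrX:74428919-74428947, minus strand: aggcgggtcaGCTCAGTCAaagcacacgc
Pgd, chr4:149166772-149166955, minus strand: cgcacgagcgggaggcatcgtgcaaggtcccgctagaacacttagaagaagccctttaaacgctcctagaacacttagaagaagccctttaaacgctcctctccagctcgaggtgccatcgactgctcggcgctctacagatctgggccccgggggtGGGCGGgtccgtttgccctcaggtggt
Taldo1, chr7:141391910-141392159, plus strand: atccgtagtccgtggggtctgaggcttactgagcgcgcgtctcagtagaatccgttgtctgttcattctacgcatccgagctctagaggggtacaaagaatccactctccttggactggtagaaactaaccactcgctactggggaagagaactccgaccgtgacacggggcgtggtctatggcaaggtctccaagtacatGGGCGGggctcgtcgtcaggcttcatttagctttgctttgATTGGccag
Prps1, chrX:140456353-140456602, plus strand: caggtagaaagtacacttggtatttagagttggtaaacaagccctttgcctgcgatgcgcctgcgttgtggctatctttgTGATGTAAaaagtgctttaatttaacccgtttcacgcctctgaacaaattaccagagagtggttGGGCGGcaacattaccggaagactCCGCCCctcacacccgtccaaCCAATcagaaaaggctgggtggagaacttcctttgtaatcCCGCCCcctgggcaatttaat

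These windows are not all upstream of the gene: 5 of the 10 hold exonic bases of GENCODE M21. That of G6pdx does so in all 250 bases and that of Tkt in 129. The RefSeq start lies 5787 bases inside the gene's GENCODE span for H6pd, 772 for Tkt and 314 for G6pdx. Among the 10 members, G6pdx alone held the antioxidant core, which starts 57 bases before the RefSeq start site, and 10.2% of 32851 promoters held it. Pgd, Tkt and Taldo1, the genes called higher in galactose over both glucose media, had no match to it in this window. Prps1 alone held the ATF4 core, 170 bases before its start, as did 3.45% of promoters. GC boxes were found in 8 of the 10 (32.7% of promoters) and CCAAT boxes in 4 of the 10 (33.9% of promoters), Pgd with 2 CCAAT matches, both in the bases not shown, and Taldo1 with 1. The 3 GC boxes of Tkt also lie in bases that GENCODE M21 counts as exon and are not shown. A match is a run of letters and not a shown binding site, and its absence here says nothing of sites elsewhere.

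Further genes around the pathway were read from 6 lists with 81 symbols, all found, 3 of them by an older symbol. Their shares of called genes are to be read beside the 36.4%, 51.3% and 33.3% of all tested loci in the same comparisons. Of 12 other genes of the pathway 8 were tested, with 2 higher and 1 lower from high to low glucose, 4 higher and 1 lower in galactose against high glucose, and 4 higher in galactose against low glucose, or 37.5%, 62.5% and 50% called. Dera, which splits deoxyribose phosphate, went from 10.7 FPKM in high glucose and 11.5 in low glucose to 14.5 in galactose, a log2 change of 0.45 from high glucose (q = 0.000239) in the authors' deposited table. Idnk, a gluconate kinase gene that feeds the Pgd step, was called lower in both low glucose and galactose, at 4.99, 3.84 and 3.63 FPKM per the authors' deposited table. Pgm1 and Pgm2, sugar phosphate mutase genes, were called higher from high glucose to galactose by 0.33 and 0.29 on the log2 scale by the authors' deposited table. The transketolase-like genes Tktl1 and Tktl2 were listed at no more than 0.0125 FPKM per the authors' deposited table and not tested.

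At the branch point with glycolysis, 2 of 14 genes were higher and 1 lower from high to low glucose, and 7 higher and 3 lower from high glucose to galactose. From low glucose to galactose 4 were higher. The shares called were 21.4%, 71.4% and 28.6%, the first and the last below those of all loci. Hk2, the inducible hexokinase that makes glucose 6-phosphate, was listed at 21.9, 28.2 and 47.3 FPKM in high glucose, low glucose and galactose, with a log2 change of 1.11 to galactose in the authors' deposited table. Pfkm, the muscle phosphofructokinase gene, fell from 25.1 FPKM in high glucose to 18.2 in galactose in the authors' deposited table (log2 change -0.47, q = 0.000239). The other phosphofructokinase genes of the list were called higher there in the authors' deposited table. Pfkl went from 57.8 to 67.3 FPKM (log2 change 0.22, q = 0.00266) and Pfkp from 21.8 to 26.5 FPKM (0.28, q = 0.0307). Pfkfb3 and Pfkfb4, whose enzymes set the level of fructose 2,6-bisphosphate, went opposite ways, by 0.66 and -0.39 on the log2 scale from high glucose to galactose in the authors' deposited table. Gapdh, usually among the most abundant transcripts, is listed at only 0.924 FPKM in high glucose in the authors' deposited table. It was still counted among the 14 genes, uncalled in each comparison, and so enters the shares called and the list's plotted median. Nothing further was read from its value.

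Genes listed as other sources of NADPH also split. The list is wider than its name: the enzyme of Mthfd1l makes no NADPH itself, that of Mthfd2 works mainly with NAD, and those of Nadk and Nadk2 make NADP. Of 13 tested, 6 were higher and 2 lower from high to low glucose, 7 higher and 4 lower in galactose against high glucose, and 6 higher in galactose against low glucose, or 61.5%, 84.6% and 46.2% called. From high glucose, the largest rises of this list were those of the mitochondrial folate enzyme genes Aldh1l2, Mthfd2 and Mthfd1l. From low glucose to galactose Me3, a mitochondrial malic enzyme gene at 0.699 and 1.20 FPKM, rose by 0.78 on the log2 scale by the authors' deposited table, more than Mthfd2 and Mthfd1l. Aldh1l2 was listed at 7.27, 27.6 and 76.9 FPKM and Mthfd2 at 51.8, 124 and 173 FPKM in high glucose, low glucose and galactose in the authors' deposited table. Mthfd1l, of the same route, rose by 1.21 on the log2 scale from high glucose to galactose in the authors' deposited table. Idh1, the cytosolic isocitrate dehydrogenase, fell from 39.0 FPKM in high glucose to 24.5 in low glucose and 20.1 in galactose in the authors' deposited table. Me1, the cytosolic malic enzyme, was called higher from high glucose to galactose, from 14.1 to 18.4 FPKM per the authors' deposited table.

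Genes of glutathione and thioredoxin reduction and supply, listed with further antioxidant genes such as Gsta4, Hmox1, Nqo1 and Cat, were called higher in galactose almost throughout. Of 14 tested, 7 were higher from high to low glucose, 13 in galactose against high glucose and 13 against low glucose, with none lower (50%, 92.9% and 92.9% called), at median log2 changes of 0.15, 1.02 and 0.82 by the authors' deposited table. Gsr, glutathione reductase, was listed at 35.6, 39.8 and 53.2 FPKM and Txnrd1, thioredoxin reductase, at 139, 179 and 267 FPKM in the order of high glucose, low glucose and galactose in the authors' deposited table. Slc7a11, the cystine transporter gene, was called higher by 1.94 and Gclm, a subunit gene of the enzyme that opens glutathione synthesis, by 1.51 on the log2 scale from high glucose to galactose in the authors' deposited table. Gsta4, a glutathione transferase gene, went from 113 FPKM in high glucose and 123 in low glucose to 683 in galactose, and Hmox1, heme oxygenase 1, from 99.7 and 123 to 264, by the authors' deposited table. Earlier results of these data had shown this list's direction, so it is no independent support.

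Genes listed as users of PRPP were mostly higher in both low glucose and galactose than in high glucose. The list is wider than its name: Gart and Paics, called higher in both, and Cad, not called, do not take PRPP itself as substrate. Naprt, called higher in both, is read from a locus combined with Eef1d, and Cad from a locus combined with Atraid. Of 10 tested, 8 were higher from high to low glucose and 8 from high glucose to galactose, 2 from low glucose to galactose, and none was lower (80%, 80% and 20% called). Their median log2 change was 0.33, 0.40 and 0.08 in the 3 comparisons in the authors' deposited table. Ppat, which opens purine synthesis from PRPP, was listed at 12.9, 17.3 and 17.9 FPKM and Hprt, which salvages purine bases, at 51.8, 67.9 and 72.9 FPKM in the order of high glucose, low glucose and galactose in the authors' deposited table. Aprt, which salvages adenine, was called in all 3 comparisons, at 226, 283 and 323 FPKM per the authors' deposited table. Nampt, of the NAD salvage route, was likewise called in each, at 11.3, 14.2 and 17.8 FPKM per the authors' deposited table.

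Of 15 tested regulators known to act on pathway genes or enzymes, 3 were higher and 2 lower from high to low glucose, 9 higher and 3 lower in galactose against high glucose, and 7 higher and 1 lower in galactose against low glucose, or 33.3%, 80% and 53.3% called. Nfe2l2, the gene of NRF2, was called higher by 0.24 on the log2 scale and Keap1, its inhibitor, lower by a log2 change of -0.27 from high glucose to galactose in the authors' deposited table. Keap1 was also called lower from high to low glucose (log2 change -0.20, q = 0.00939), where Nfe2l2 was not called (q = 0.472). From low glucose to galactose Nfe2l2 was called higher (0.17, q = 0.0245) and Keap1 was not called (q = 0.471) in the authors' deposited table. Atf4 had log2 changes of 0.57 and 0.99, Myc of 0.72 and 0.82, and Maff, a partner of NRF2, of 0.62 and 0.73 from high glucose to low glucose and to galactose in the authors' deposited table. Srebf1, a lipogenic factor known to act on G6pdx, fell by 0.58 and 0.88 on the log2 scale in the same comparisons by the authors' deposited table.

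**Figure D4:**
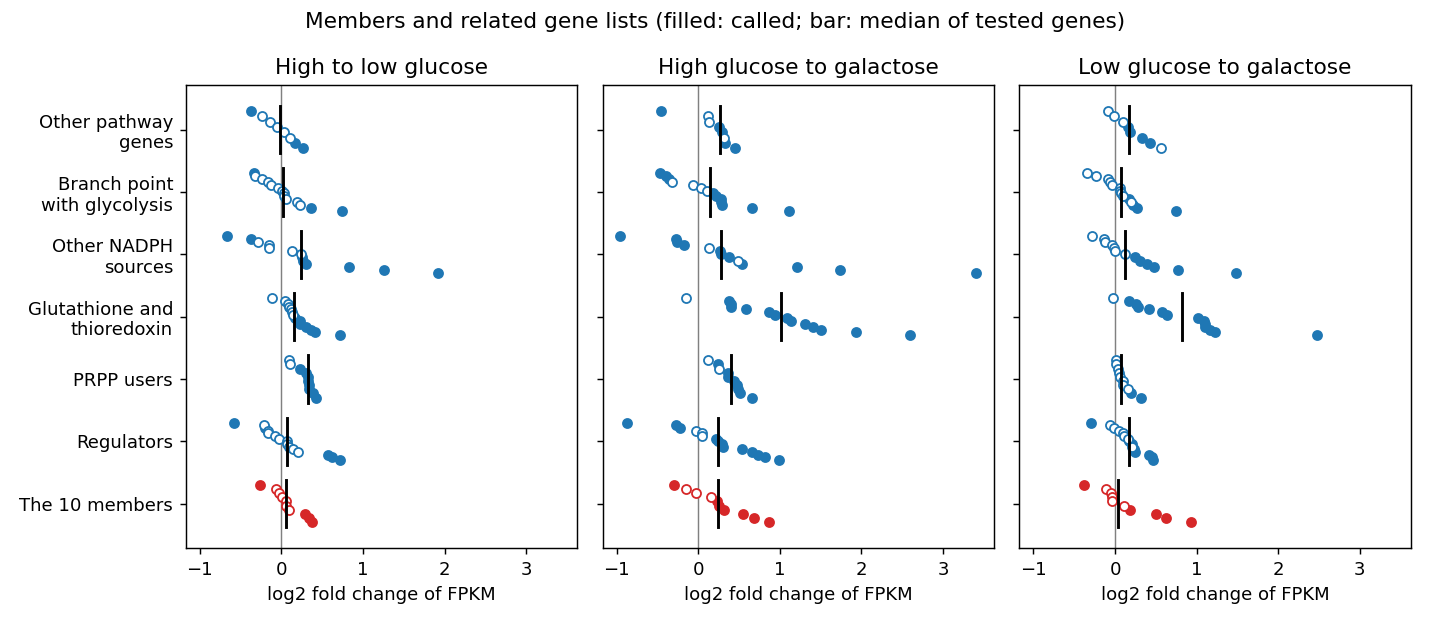
log2 fold change of FPKM (x axis) of the tested genes of 6 related lists (blue) and of the 10 members (red) in the 3 comparisons of the authors' deposited table, filled where called, with a black bar at the median. The glutathione and thioredoxin list has medians of 0.15, 1.02 and 0.82 from left to right, and the PRPP list 0.33, 0.40 and 0.08.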

How the data were processed

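The data are the authors' 1 deposited Cuffdiff table of 26271 loci and 3 comparisons. It was made with TopHat2 2.0.10, Cufflinks 2.2.0, Cuffdiff and build mm10, per the submitters' processing notes; settings, strand use and normalization between libraries are not given in the sources used here. Per the file headers, the deposited values are FPKM, 1 pooled value per group, with the authors' log2 fold change, test score (not used), p-value and q-value. The log2 fold change carries no pseudocount, and the q-value was recomputed as the Benjamini-Hochberg adjustment over all 44006 tests. Groups were taken from the sample labels. With no values per library, no test was rerun.

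A symbol was looked up in the gene column split on commas, and the row with the highest summed FPKM was used. Calls required a completed test and q below 0.05. All 10 members are named. Of each related list, up to 4 called genes with the largest change could be named, and others where a sentence turned on them. The members and lists were chosen with earlier results of these data known. For likeness, loci with at least 5 FPKM in every group were ranked by Euclidean distance over both log2 changes from high glucose. Locus starts, 0-based in the table, are printed 1-based. Shared sequence was counted as 50-base words of the longest coding transcript in GENCODE M21. Alternatives were q below 0.01, a 2-fold change, at least 1 FPKM, adjustment within a comparison, the other row of a symbol, a pseudocount of 1 FPKM, centring on all tested loci, H6pd left out and Tkt with Taldo1 alone; shares of total FPKM are an alternative chosen after seeing the data. The counting of calls was checked on made-up tables with known answers. Tables were read with pandas 2.3.3 (Python 3.11.15) and drawn with matplotlib 3.10.9.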

Additional observations from a re-analysis of the deposited data

How the results depend on the processing

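The counts of called members were 4 for low against high glucose, 7 for galactose against high glucose and 5 for galactose against low glucose. Demanding a 2-fold change left 0, 0 and 0. The counts were 4, 5 and 4 at q below 0.01, and 4, 8 and 5 when adjusted within the comparison. A floor of 1 FPKM and the other row of a symbol could not change the counts, since all 10 members passed that floor and had 1 row each. The median log2 change of the oxidative branch, -0.05, 0.06 and 0.15 in that order, was -0.134, -0.112 (reversed) and 0.0637 as shares of total FPKM, 0.0537 and 0.14 for galactose against high and low glucose when centred, and 0.14 from low glucose to galactose with a pseudocount. That of the non-oxidative branch, 0.17, 0.40 and 0.23, was 0.087, 0.228 and 0.145 as shares, 0.39 and 0.22 for the comparisons with galactose when centred, and 0.16 and 0.39 for those from high glucose with a pseudocount. The totals of FPKM differ, so shares move the median of all tested loci from high glucose to galactose from 0.01 to -0.17. As shares, 4 uncalled values reversed: G6pdx (-0.0798), Tkt (-0.0279) and Taldo1 (-0.0367) from high to low glucose and Pgls (-0.0209) from high glucose to galactose. The 16 calls kept their sign as shares of total FPKM, which lowered every log2 change by 0.09, 0.17 and 0.08 in the 3 comparisons. Centring moved the changes by about 0.01, less than any called change, and a pseudocount cannot turn a sign. The ratio of the summed branches was 2.60, 2.36 and 2.51 without H6pd and 3.21, 2.99 and 2.95 with Tkt and Taldo1 alone, in high glucose, low glucose and galactose. Libraries could not be left out in turn. No paired analysis was possible because the columns carry 1 pooled value per group and no replicate number. Depth is unknown, and calls rest on the authors' own model.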

Other observations

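The genes whose log2 changes from high glucose to low glucose and to galactose were most like those of G6pdx and Tkt were sought among 7271 loci. Beside G6pdx stood Emp3, Zranb1, R3hcc1, Pom121 and Lamc1, all within 0.01 of it in distance on the log2 scale. Beside Tkt stood Npc1, a lysosomal cholesterol transporter gene, at a distance of 0.00383, with 15.6, 16.3 and 25.1 FPKM in high glucose, low glucose and galactose in the authors' deposited table. Plekhm2, Acsbg1, Ppp3ca and Zbed3 followed at distances of 0.032 to 0.0447. With 3 groups this likeness rests on 2 numbers per gene, and nothing is read from it on shared function.

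Fam129c, which overlaps the end of a longer form of Pgls on the same strand in GENCODE M21 (776 shared exonic bases, 0 of them inside the deposited Pgls locus), went from 2.07 and 1.89 FPKM in high and low glucose to 3.23 in galactose, a log2 change of 0.64 from high glucose (q = 0.000239) in the authors' deposited table. It was named after its values were seen.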
